A study of Mus musculus with 12 samples.

Results

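Cytokine receptors set which soluble signals a B cell can answer. The 10 receptor genes described here (Il4ra, Il21r, Il9r, Il2rg, Il6ra, Il6st, Il10ra, Il10rb, Ifngr1 and Ifnar1) were chosen by name, by a rule that uses no measured value, from the 43629 genes of the count table. Earlier results of these data were known when they were chosen. All 10 were found by their Ensembl identifiers and passed the filter on low counts in both comparisons. RNA sequencing gave their mRNA levels in 12 libraries of B cells sorted from mouse spleen, 4 in each of 3 groups.

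The Zfp36l1-deficient marginal zone (MZ) group, replicates 1, 2, 7 and 8, had the genotype Zfp36l1fl/flERT2cre/+. The control MZ group, replicates 3, 4, 5 and 6, was ERT2cre/ERT2cre, and the follicular (FO) group, replicates 3, 4, 7 and 8, was Zfp36l1fl/fl cre-. The strain label Zfp36l1tm1.1Tnr is shared by all 3 groups. The MZ groups are thus set apart by the floxed allele and by 1 or 2 copies of ERT2cre, a recombinase that all MZ cells carry, and FO cells have the floxed allele without cre. The labels name neither the locus of the ERT2cre insertion nor any inducer of the recombinase, nor the age of the mice, and they do not say whether replicates were separate animals. P-values therefore measure the spread between these libraries, which may be technical. MZ cells were sorted as CD21-high and CD23-negative, and FO cells as positive for CD21 and CD23, with B220 and CD93 labelled positive in both gates. MZ and FO libraries also differ in library kit and read layout, so cell type, genotype and library method cannot be told apart in their comparison.

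Most of these receptors are assembled from a chain that binds the cytokine and a chain that several cytokines share. The common gamma chain, encoded by Il2rg, pairs with the IL-4, IL-9 and IL-21 receptor chains. Gp130, encoded by Il6st, is the signalling chain of the IL-6 receptor, and IL-10 receptor beta serves IL-10 and related cytokines. The type I and type II interferon receptors each have a pair of chains of their own. Janus kinases bound to the chains phosphorylate STAT transcription factors, which SOCS proteins and phosphatases hold back. In B cells, IL-4 and IL-21 are known for their roles in class switching and in germinal centre and plasma cell responses. MZ B cells sit at the edge of the splenic follicle and respond early to blood-borne antigens, whereas FO B cells recirculate through follicles.

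Zfp36l1 encodes an RNA-binding protein that binds AU-rich elements in 3′ untranslated regions (UTRs) and promotes decay of the mRNA. The AU-rich heptamer TATTTAT, as the letters of the genome's sense strand, was found in the longest annotated 3′ UTR of 2 of the 10 genes. It occurred 3 times in Il10ra, the chain that binds IL-10, at bases 1390 to 1416 of a UTR of 1693 bases. Il9r, the chain that binds IL-9, held it once, at base 2963 of 3071. Both stretches are shown because they are the only matches among the 10 genes and are written 5′ to 3′ on the minus strand of GRCm38, with the heptamer in capitals.
Il10ra, chr9:45254113-45254141: tTATTTATTTATttgctcactTATTTATt
Il9r, chr11:32187632-32187660: aaggctttctaTATTTATacatcttcaaa
In Il10ra the first 2 matches overlap. Among tested genes, 29.3% of 11408 with an annotated 3′ UTR held the heptamer at least once. The share depends on length: it was 34.6% of the 1732 genes with a UTR within 20% of the Il10ra length and 51.7% of the 1367 within 20% of the Il9r length. Il6st and Il6ra, with the longest UTRs of the 10 at 5641 and 7102 bases, had no match, while 66.7% and 75.4% of genes of like length held one. No match was found in Il4ra, Il21r, Il2rg, Il10rb, Ifngr1 or Ifnar1. A match of letters is not evidence of binding, and its absence from these annotated UTRs says nothing about the protein.

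Each library held 28938453 to 40664963 counts. No pair of replicates was identical, and all differed by more than sampling noise, with a chi-square per gene of 5.45 to 44.5. Deficient replicate 1 stood apart from the other deficient libraries (23.8 to 44.5, against 11.8 to 14.6 among those), so results that rest on it are also given without it. All 8 B cell markers were present at a mean of at least 1 CPM in each group. Summed MZ markers reached 7155 to 7781 CPM (TMM-scaled counts relative to the library total) in deficient MZ, 8279 to 8623 in control MZ and 1784 to 2048 in FO libraries, and summed FO markers 1108 to 1362, 845 to 958 and 3866 to 4051.

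Zfp36l1 itself stood at 22.0, 31.9, 28.1 and 37.5 CPM in the deficient libraries (replicates 1, 2, 7 and 8). The control MZ libraries (replicates 3, 4, 5 and 6) had 116, 109.6, 118 and 126 CPM. The groups did not overlap and the log2 fold change was −1.98 (SE 0.13, edgeR quasi-likelihood, adjusted p = 4.92e-07). FO libraries held 352 to 396 CPM.

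To compare levels between genes, CPM were divided by the length of the merged exons. In control MZ cells Il9r was highest, at 118 ± 4.8 CPM per kb (mean ± SD, n = 4). This was the 97.9th percentile of the 14462 genes that passed the filter on low counts over all 12 libraries and had an exon length. Il2rg followed at 107 ± 6.18, Il10ra at 73.5 ± 8.16, Ifngr1 at 63.7 ± 1.75 and Il21r at 56.3 ± 6.44 CPM per kb. Il10ra and Ifngr1 overlapped over libraries, as did Ifngr1 and Il21r, so their order is not resolved. Il9r and Il2rg nearly met, with the lowest Il9r library at 114.18 and the highest Il2rg library at 114.13 CPM per kb. Because 30.5% of the Il2rg exon bases lie under another gene model of the same strand, its place in the order of each group is uncertain. Il4ra reached 37.8, Il10rb 24.7 and Ifnar1 16.0 CPM per kb, each apart from its neighbour in the order, while the IL-6 receptor chains were far lower, Il6st at 2.88 and Il6ra at 0.897.

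In FO cells the order was led by Il21r at 154 ± 10.9 CPM per kb. Il2rg at 118, its place again uncertain, and Il4ra at 101 came next, then Il10ra at 87.2 and Ifngr1 at 37.4. Ifnar1 at 29.7 and Il9r at 29.3 overlapped. Il10rb reached 19.99 CPM per kb, and here Il6ra at 4.21 lay above Il6st at 1.73, the reverse of control MZ cells. The order in deficient MZ cells was that of control MZ cells except that Il21r at 62.8 lay above Ifngr1 at 49.9 CPM per kb, and these did not overlap. Il9r at 119 and Il2rg at 110.4 CPM per kb overlapped there.

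**Figure D1:**
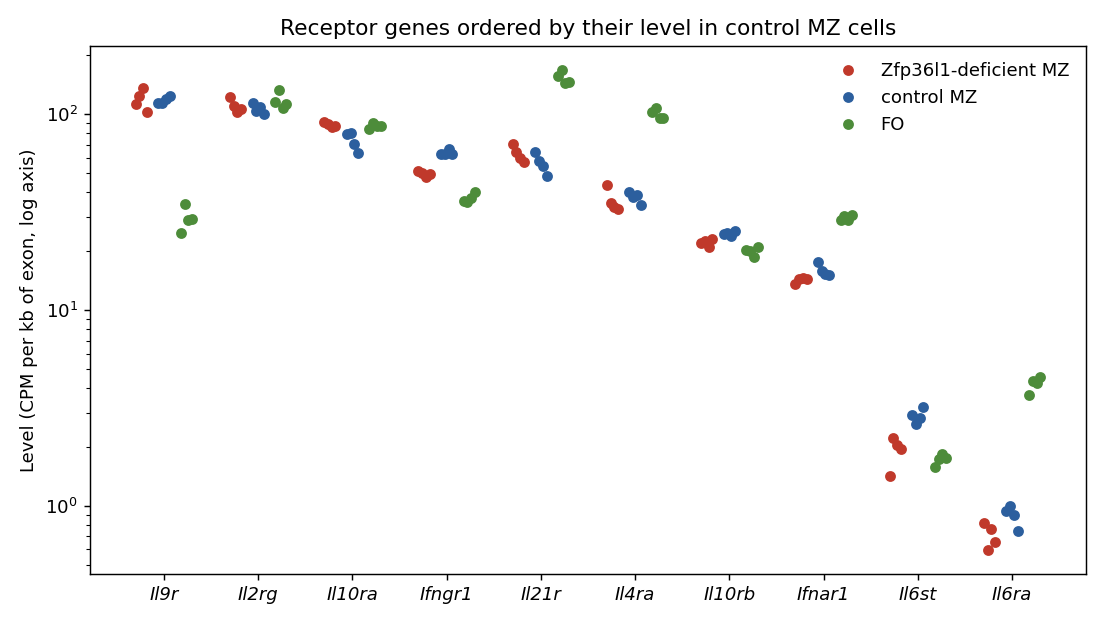
Level of each receptor gene in CPM per kb of exon (log axis) in the 12 libraries, with genes ordered by their level in control MZ cells and 1 point per library coloured by group. Il9r and Il2rg lead in MZ cells, Il21r leads in FO cells, and the order of Il6ra and Il6st is reversed between control MZ and FO cells. The place of Il2rg is uncertain, because part of its exon bases lie under another gene model.

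In deficient MZ cells 2 of the 10 receptor genes were lower and 0 were higher than in control MZ cells: Il6st (gp130), 1.52-fold lower, and Ifngr1, the ligand-binding chain of the interferon gamma receptor, 1.29-fold lower. The other 8 did not pass the test. Over all 13987 genes tested, 3.7% were called at an adjusted p under 0.05, 2.29% higher and 1.4% lower. The median log2 difference of the 10 was −0.12, beside −0.0037 over all genes tested. Of the 10, 6 had an unadjusted p under 0.05, 1 higher and 5 lower. The share of all genes at that unadjusted threshold was not counted. This count and the unadjusted counts of other lists below therefore have no background and are not read as results about the lists. The groups did not overlap for 5 of the 10, Il10ra on the higher side and Il6st, Ifngr1, Il10rb and Ifnar1 on the lower; of all genes tested this held for 11.9%, 6.31% on the higher and 5.58% on the lower side.

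Control MZ and FO cells differed in 9 of the 10 genes, 4 higher and 5 lower in MZ cells, in a comparison where 81.5% of 13843 genes tested were called, 42.6% higher and 38.8% lower. Il9r was 4.06-fold higher in MZ cells, Ifngr1 1.71-fold, Il6st 1.68-fold and Il10rb 1.24-fold. Il6ra was 4.66-fold lower, Il21r 2.72-fold, Il4ra 2.64-fold, Ifnar1 1.84-fold and Il10ra 1.18-fold lower. Il2rg did not pass the test. Groups did not overlap for 9 of the 10 genes, 4 higher and 5 lower, against 76.9% of all genes tested (39.7% higher, 37.2% lower), so these counts lie near the background of the comparison.

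**Figure D2:**
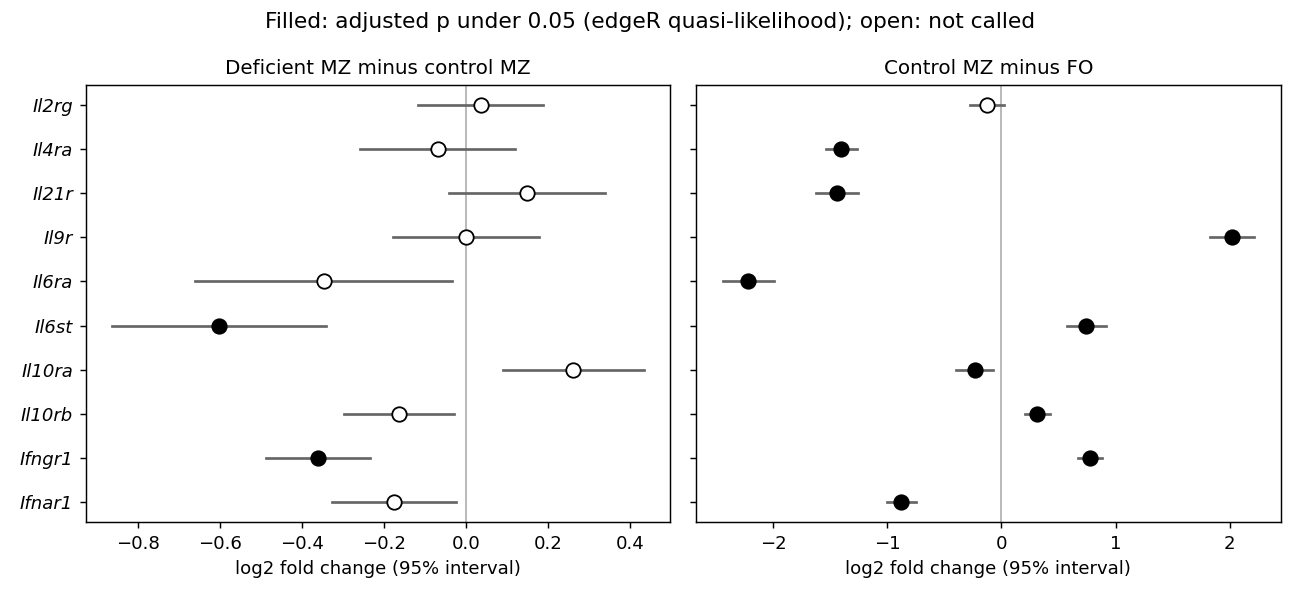
Log2 fold changes of the 10 receptor genes with 95% intervals, deficient against control MZ on the left and control MZ against FO on the right; filled points have an adjusted p under 0.05. On the left only Il6st and Ifngr1 are filled, both below 0, and on the right Il2rg alone is open.

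Il2rg, the common gamma chain, was the only one of the 10 genes called in neither comparison. Deficient MZ libraries held 244 to 292 CPM, control MZ libraries 238 to 272 and FO libraries 259 to 317, and the groups overlapped. The log2 difference was 0.04 between deficient and control MZ cells (95% interval −0.12 to 0.19, adjusted p = 0.832) and −0.12 between control MZ and FO cells (−0.28 to 0.03, adjusted p = 0.111). The latter was called without FO replicate 7 (−0.17, adjusted p = 0.0389). Il2rg lies at X:101264378-101268255 on the minus strand, and 30.5% of its exon bases lie under the same-strand gene model Gm20489, so its count is uncertain where reads could be split.

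Il4ra encodes the chain that binds IL-4 and also serves IL-13. Deficient MZ replicates 1, 2, 7 and 8 held 261, 211, 202 and 197 CPM, and control MZ replicates 3, 4, 5 and 6 held 241, 228, 232 and 206. FO replicates 3, 4, 7 and 8 held 618, 648, 576 and 578 CPM, every library above every MZ library. The log2 difference between control MZ and FO cells was −1.40 (SE 0.06, adjusted p = 8.91e-10), and that between deficient and control MZ cells was −0.07 (95% interval −0.26 to 0.12, adjusted p = 0.714).

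Il21r, the chain that binds IL-21, differed between the cell types much as Il4ra did. Its levels were 233, 213, 199 and 191 CPM in deficient replicates 1, 2, 7 and 8, and 213, 192, 181 and 162 in control replicates 3, 4, 5 and 6. FO replicates 3, 4, 7 and 8 stood at 519, 561, 480.3 and 489 CPM, again above all MZ libraries. The log2 difference was −1.44 for control MZ against FO cells (SE 0.08, adjusted p = 9.4e-09) and 0.15 for deficient against control MZ cells (95% interval −0.04 to 0.34, adjusted p = 0.384). Il4ra (7:125552120-125579474, plus strand) and Il21r (7:125603429-125633570, plus strand) lie 24 kb apart. Of the Il4ra exon bases, 9.51% lie under the opposite-strand gene model Gm44876.

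Il9r had the highest mean level per kb of the 10 genes in both MZ groups, although the place of Il2rg beside it is uncertain. Its level was 560.4, 614, 673 and 508 CPM in deficient replicates 1, 2, 7 and 8, against control values (replicates 3, 4, 5 and 6) of 568, 565, 594 and 615. In FO replicates 3, 4, 7 and 8 it stood at 123, 171, 142 and 144 CPM, below every MZ library. The log2 difference between control MZ and FO cells was 2.02 (SE 0.09, adjusted p = 5.83e-10). Between deficient and control MZ cells the interval of the log2 difference ran from −0.18 to 0.18 around a value of −0.00066 (adjusted p = 0.999), and its sign changed with the processing. Il9r, one of the 2 genes with the heptamer, lies at 11:32187541-32200279 on the minus strand. Il9, which encodes its ligand, and Il21 had 0 counts in all 12 libraries, where 3 counts would be 0.0697 to 0.0961 CPM.

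**Figure D3:**
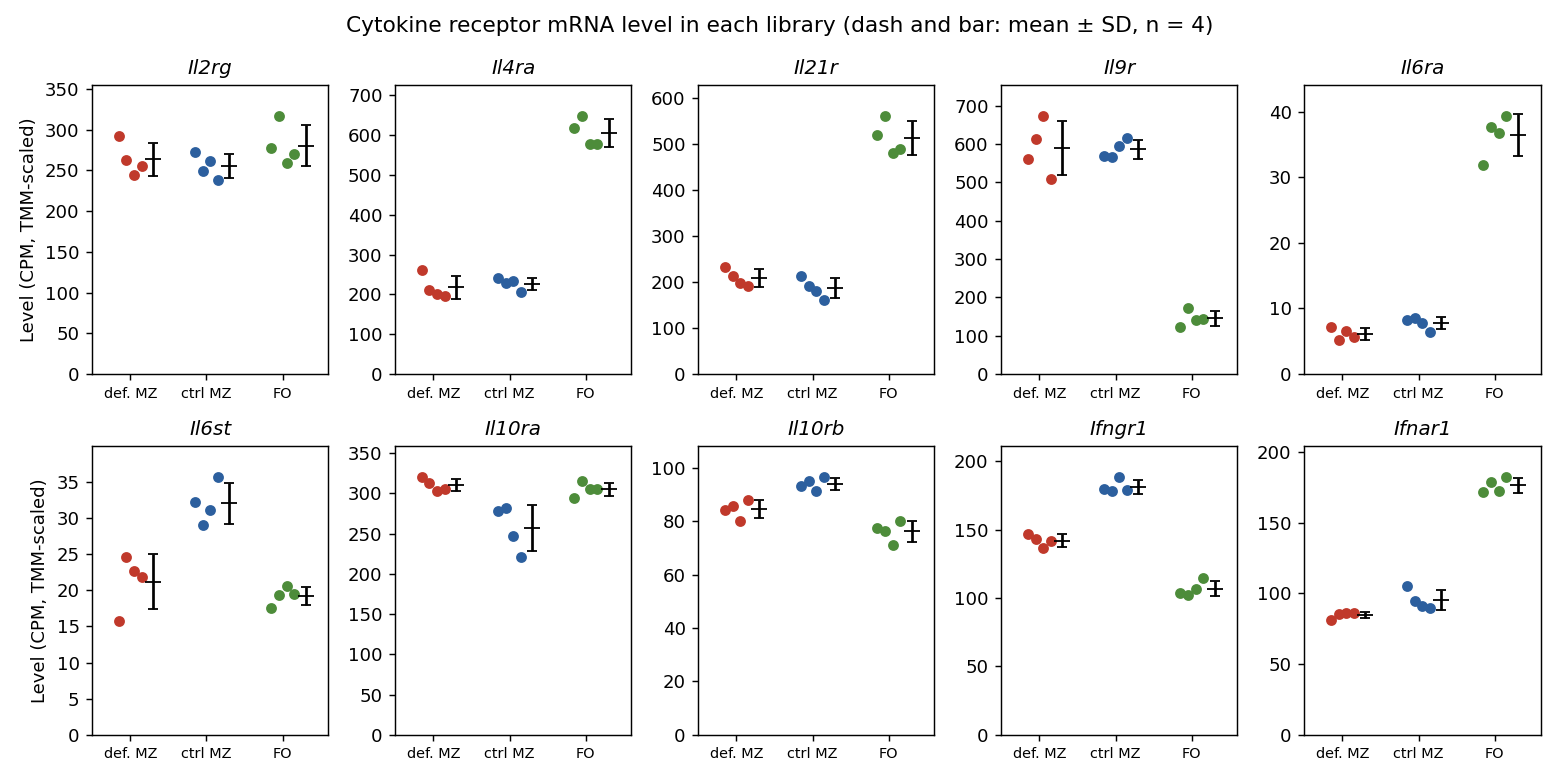
Level of the 10 receptor genes (CPM, linear axes from 0) in each library of deficient MZ, control MZ and FO cells, with the mean ± SD of 4 libraries beside the points. Il6st and Ifngr1 are lower in all deficient than in all control libraries, Il4ra, Il21r, Il6ra and Ifnar1 are highest in FO cells, and Il9r is highest in MZ cells.

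The IL-6 receptor chains moved in opposite directions between the cell types. Il6ra, the chain that binds IL-6, stood at 8.18, 8.62, 7.79 and 6.42 CPM in control MZ replicates 3, 4, 5 and 6, and at 31.9, 37.6, 36.8 and 39.3 in FO replicates 3, 4, 7 and 8. Deficient replicates 1, 2, 7 and 8 held 7.12, 5.17, 6.55 and 5.67 CPM. All FO libraries lay above all MZ libraries, with a log2 difference of −2.22 for control MZ against FO (SE 0.10, adjusted p = 1.11e-09). Deficient and control MZ libraries overlapped, with a log2 difference of −0.35 (95% interval −0.66 to −0.03, adjusted p = 0.212). The gene lies at 3:89864059-89913196 on the minus strand.

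Il6st, the signalling chain, was lower in deficient MZ cells. Its level was 15.7, 24.6, 22.6 and 21.8 CPM in deficient replicates 1, 2, 7 and 8, against control values (replicates 3, 4, 5 and 6) of 32.2, 29.0, 31.1 and 35.7. The groups did not overlap, and deficient replicate 1 was the lowest. The log2 difference was −0.60 (SE 0.12, 95% interval −0.86 to −0.34, edgeR quasi-likelihood adjusted p = 0.0145), and −0.48 without deficient replicate 1 (adjusted p = 0.0124). Across all alternatives run for it the adjusted p ranged from 0.000244 to 0.0475. In the authors' deposited table the log2 difference of Il6st was −0.50 (adjusted p = 0.00026).

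FO replicates 3, 4, 7 and 8 held 17.5, 19.4, 20.5 and 19.5 CPM of Il6st, below every control MZ library. The log2 difference for control MZ against FO was 0.75 (SE 0.08, adjusted p = 2.44e-06). The means were 21.2 CPM in deficient MZ, 32.0 in control MZ and 19.2 in FO cells; deficient and FO libraries were not tested against each other. Il6st lies at 13:112464070-112510086 on the plus strand, 9.8 kb from Il31ra.

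Neither IL-10 receptor chain passed the test between deficient and control cells, although the libraries of the groups did not overlap for either. Il10ra held 321, 313, 303 and 305 CPM in deficient replicates 1, 2, 7 and 8, and 278, 282, 247 and 221 in control replicates 3, 4, 5 and 6. All deficient libraries lay above all control libraries, and control replicate 6 was the lowest. The log2 difference was 0.26 (SE 0.08, 95% interval 0.09 to 0.43, adjusted p = 0.0884), and a single-gene exact permutation test gave p = 0.0286, the smallest possible with 4 against 4. The gene was called by DESeq2 (adjusted p = 0.0263), in the fit of all 12 libraries (0.0323) and in the authors' deposited table (log2 difference 0.24, adjusted p = 0.0275).

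FO replicates 3, 4, 7 and 8 held 295, 315, 305 and 305 CPM of Il10ra, all above the control MZ libraries, with replicate 3 below the deficient range and the other 3 within it. The log2 difference for control MZ against FO was −0.24 (SE 0.07, adjusted p = 0.0111), a call that was lost with the replicate number as a block (−0.11, adjusted p = 0.144). Il10ra, with its 3 heptamers, lies at 9:45253837-45269149 on the minus strand.

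Il10rb held 80.1 to 87.8 CPM in deficient, 91.3 to 96.6 in control MZ and 71.0 to 80.1 in FO libraries. Deficient and control libraries did not overlap, with a log2 difference of −0.16 (95% interval −0.30 to −0.03, adjusted p = 0.17; exact permutation p = 0.0286). Control MZ libraries all lay above FO libraries, with a log2 difference of 0.31 (SE 0.05, adjusted p = 0.000106). Of its exon bases, 14.94% lie under the same-strand gene model Gm21970.

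Among the interferon receptors, Ifngr1 was lower in deficient cells. Its level was 147, 143, 136 and 142 CPM in deficient replicates 1, 2, 7 and 8, against control values (replicates 3, 4, 5 and 6) of 179.6, 178, 189 and 179. No deficient library reached a control library. The log2 difference was −0.36 (SE 0.06, 95% interval −0.49 to −0.23, adjusted p = 0.00399), and the call was kept in all alternatives run, with adjusted p from 2.63e-08 to 0.0211. The authors' deposited table gives −0.35 (adjusted p = 1.81e-08). FO replicates 3, 4, 7 and 8 held 103, 102, 107 and 114 CPM, below all MZ libraries of both groups, and the log2 difference for control MZ against FO was 0.78 (SE 0.05, adjusted p = 1.45e-08). Ifngr1 lies at 10:19591949-19610229 on the plus strand.

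Ifnar1, a chain of the receptor for type I interferons, had its highest level in FO cells. FO replicates 3, 4, 7 and 8 held 172, 179, 173 and 183 CPM, and control MZ replicates 3, 4, 5 and 6 held 105, 94.6, 91.3 and 89.6. The log2 difference for control MZ against FO was −0.88 (SE 0.06, adjusted p = 3.14e-08). In deficient replicates 1, 2, 7 and 8 it reached 81.1, 85.6, 86.3 and 85.9 CPM, all below the control libraries, but the difference of −0.18 on the log2 scale did not pass the test (95% interval −0.33 to −0.03, adjusted p = 0.187; exact permutation p = 0.0286).

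Il10rb, Ifnar1, Ifnar2 and Ifngr2 are neighbours on chromosome 16. Ifnar2 and Ifngr2, the partner chains of the type I and type II interferon receptors, are not among the 10 genes and were looked at after their values were seen. Il10rb (16:91406164-91425834) lies 0.6 kb from Ifnar2, 59.4 kb from Ifnar1 (16:91485238-91507441) and 121.2 kb from Ifngr2. Relative to FO cells, control MZ cells had more Ifnar2 (log2 0.69), Ifngr2 (0.37) and Il10rb (0.31) and less Ifnar1 (−0.88), all called. Between deficient and control MZ cells neither partner was called in the fit of those 8 libraries: Ifnar2 stood at −0.21 (adjusted p = 0.109) and Ifngr2 at 0.21 (adjusted p = 0.0876) on the log2 scale. DESeq2 called both (adjusted p = 0.0404 and 0.0159), and edgeR called Ifngr2 in the fit of all 12 libraries (log2 0.22, adjusted p = 0.0311).

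The ratio of partner chains within a library does not depend on the scaling of the library. For 7 pairs, 14 ratios per kb were compared with exact permutation tests, in which 0.0286 is the smallest possible p; 9 reached it, with p = 0.0444 after adjustment over the 14. Ifngr1 over Ifngr2 had a log2 ratio of 0.61 ± 0.04 in deficient, 1.18 ± 0.04 in control MZ (SD, n = 4) and 0.76 ± 0.05 in FO libraries, a fall of 0.57 from control to deficient cells. Il10ra over Il10rb was 2.001 ± 0.06 in deficient and 1.57 ± 0.18 in control MZ libraries, a difference of 0.43 that ranged from 0.35 to 0.48 when single libraries were left out. No other pair reached the smallest possible p between deficient and control cells. The pairs were chosen with earlier results known.

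Between control MZ and FO cells all 7 ratios differed. Of the 7, Il6ra over Il6st differed most, from a log2 ratio of 1.28 ± 0.08 in FO to −1.69 ± 0.31 in control MZ libraries. Ifnar1 over Ifnar2 fell from 1.29 ± 0.04 to −0.28 ± 0.10. Over Il2rg, Il9r was higher by 2.15 on the log2 scale, whereas Il4ra and Il21r had differences of −1.28 and −1.33. These ratios share the length of the exons used and say nothing of protein at the cell surface.

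**Figure D4:**
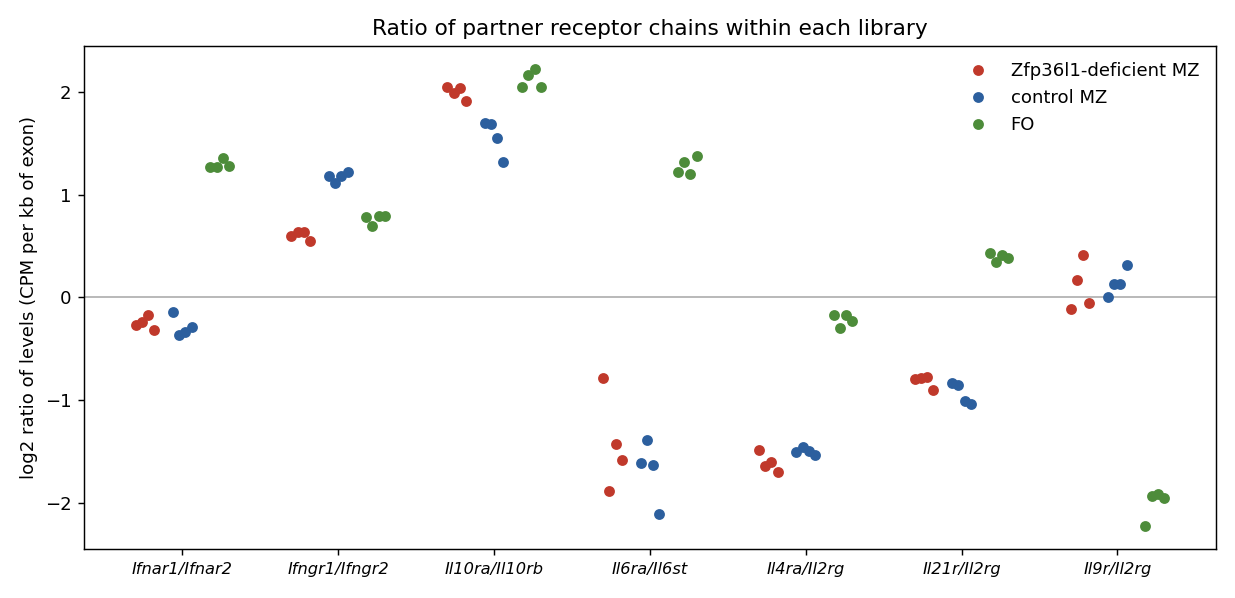
Log2 ratio of the levels per kb of paired receptor chains within each library, with 1 point per library coloured by group. Il6ra over Il6st and Ifnar1 over Ifnar2 change sign between FO and MZ libraries, and Ifngr1 over Ifngr2 is lower in all deficient than in all control MZ libraries.

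The other genes of cytokine signalling were read from lists drawn up by function, and all symbols matched. In deficient against control MZ cells, 29 of 51 other cytokine receptors were tested, of which Il5ra rose and Il3ra fell; DESeq2 called 6 of 45, 3 higher and 3 lower. Il5ra, the chain that binds IL-5, held 18.1, 18.1, 23.8 and 21.8 CPM in deficient replicates 1, 2, 7 and 8 and 5.14, 7.31, 10.97 and 12.3 in control replicates 3, 4, 5 and 6. Its log2 difference was 1.19 (SE 0.21, adjusted p = 0.00706). Il3ra, the chain that binds IL-3, fell by 0.83 on the log2 scale (adjusted p = 0.0238), a call lost without deficient replicate 2, 7 or 8 or control replicate 6.

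Of the 4 Janus kinases and the 8 STAT factors 0 were called by edgeR (2 kinases and 1 STAT factor, all lower, at an unadjusted p under 0.05). Jak2, the kinase used by the interferon gamma receptor among others, was nearest, at −0.34 on the log2 scale with groups that did not overlap (adjusted p = 0.0576), and DESeq2 called 1 kinase, Jak2 (adjusted p = 0.0171). Jak1, Jak3 and Tyk2 had log2 differences of −0.15, −0.17 and −0.09 (adjusted p = 0.216, 0.298 and 0.528). DESeq2 also called 1 STAT factor lower, Stat5b (−0.18, adjusted p = 0.0174). No signal inhibitor of 17 was called by edgeR (0, with 6 at an unadjusted p under 0.05, 2 higher and 4 lower), whereas DESeq2 called 5, 2 higher and 3 lower, and 2 were called without the filter and in the fit of 12 libraries, both lower.

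Of 19 cytokine response genes 2 rose and 0 fell in deficient cells: Pim1, a serine/threonine kinase, by a log2 difference of 0.87 (SE 0.17, adjusted p = 0.012), and Il4i1, an amino acid oxidase induced by IL-4, by 0.45 (SE 0.09, adjusted p = 0.0139). Of 6 tested ligands of 24, Ebi3 (−0.78, adjusted p = 0.00219) and Il12a (−0.62, adjusted p = 0.0123), the chains of IL-35, fell. Il12b rose (2.38 on the log2 scale, adjusted p = 0.0366) at 2.38 against 0.453 CPM, and this call was lost without deficient replicate 1 or 7 or any single control replicate.

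Between control MZ and FO cells, 25 of 27 tested other receptors were called, 15 higher and 10 lower in MZ cells. As 81.5% of all 13843 genes tested were called here, 42.6% higher and 38.8% lower, counts of lists and markers are not read as results about them. Csf2rb, the shared chain of the IL-3, IL-5 and GM-CSF receptors, held 119 ± 11.6 CPM in control MZ and 10.5 ± 2.51 in FO libraries (log2 3.52, SE 0.14, adjusted p = 2.7e-10). Il2rb, Csf1r and Il15ra were also higher, at 3.13, 2.62 and 1.43 on the log2 scale. Csf1r, at 3.69 against 0.606 CPM, is also a macrophage and monocyte marker. Of the 11 such markers tested in this comparison, 8 were called higher and 1 lower in MZ cells. Whether such cells contribute to the Csf1r difference was not tested. Ifnlr1, Il5ra, Il11ra1 and Il27ra were lower, at −3.49, −2.52, −1.28 and −1.27. Lifr, a partner of gp130, had 1, 0, 6 and 0 counts in control MZ replicates 3, 4, 5 and 6 and 231, 291, 280 and 250 counts in FO replicates 3, 4, 7 and 8.

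Of the kinases 2 of 4 and of the STAT factors 3 of 8 were called in this comparison, all lower in MZ cells. The share over all genes tested was 81.5%, with 38.8% called lower. Jak1 was lower in MZ cells by a log2 difference of −0.41 (adjusted p = 8.2e-06), and Jak2 by −0.19 (adjusted p = 0.0296, a call lost without control replicate 3, 4 or 6 or FO replicate 3 or 8). Jak3 and Tyk2 were not called. Stat4 (−1.30), Stat5a (−0.38) and Stat6 (−0.24, which transmits the IL-4 signal) were lower in MZ cells, and the other 5 STAT factors were not called. Of these, Stat3 was called lower without FO replicate 7 or 8 (−0.23 and −0.22) and Stat5b without FO replicate 7 (−0.12).

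Among the 17 signal inhibitors 9 were higher and 6 lower in MZ cells, and among 19 response genes 12 were higher and 4 lower. With 42.6% of all genes tested called higher and 38.8% lower, these counts are not read as results about the lists. Among the inhibitors Socs1 had a log2 difference of 3.97, which was 3.08 without control replicate 6, and Socs4 (−3.58) and Socs7 (−3.01) were the lowest. The interferon-induced genes Ifit3, Ifit1, Isg15 and Irf7 were higher in MZ cells by 2.81, 2.71, 1.79 and 1.29 on the log2 scale. Pim1 (−3.67), Fcer2a (−3.31, the CD23 gene, used for the sort), Ciita (−1.38) and Il4i1 (−0.99) were lower. Of 4 tested ligands Il15 (1.68), Ebi3 (0.55) and Osm (0.26) were higher and Il12a (−0.44) lower; the call of Osm was lost with DESeq2 (adjusted p = 0.0511), without the filter, in the fit of 12 libraries and without any single library other than control replicate 6.

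**Figure D5:**
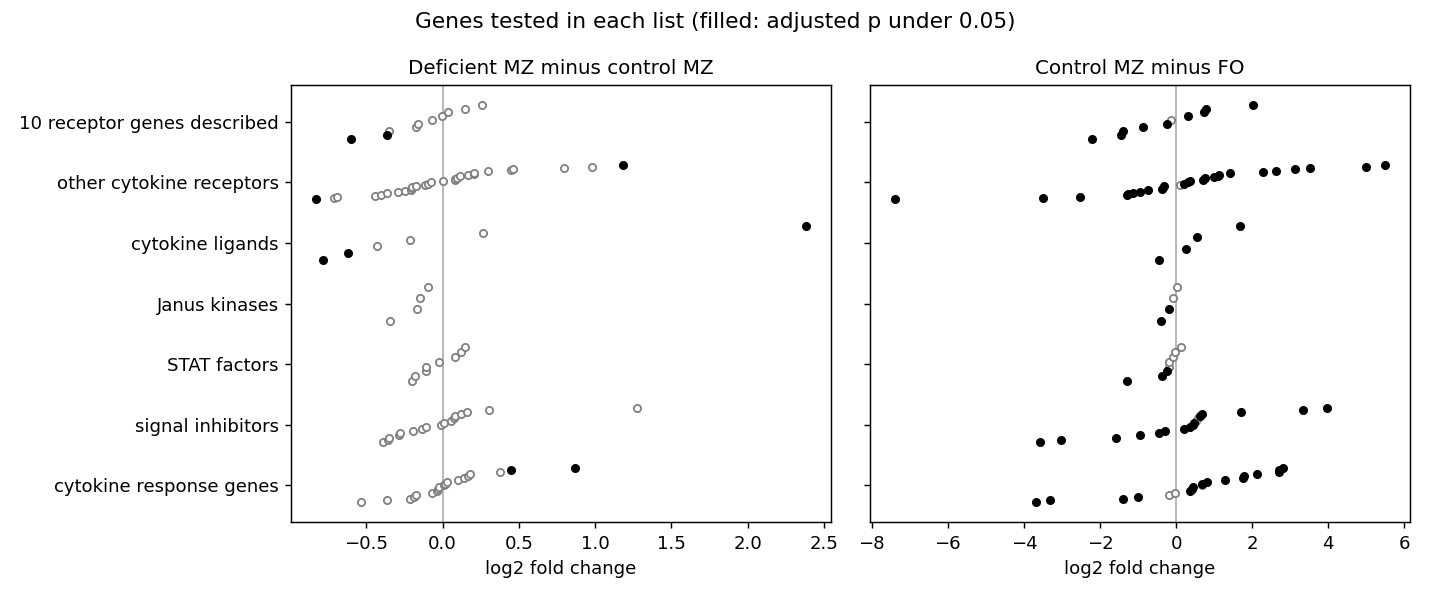
Log2 fold changes of every tested gene of the receptor genes and the other cytokine signalling lists, deficient against control MZ on the left and control MZ against FO on the right, on different scales; filled points have an adjusted p under 0.05. Few points are filled on the left, and most are on the right.

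Markers of other cells were summed in each library as a check. T cell markers reached 2.26 to 4.83 CPM in deficient, 1.03 to 1.14 in control MZ and 0.928 to 2.06 in FO libraries, with counts for 8, 5 and 9 of the 9 markers; Thy1 was at 0 in all MZ libraries and Cd4 in control MZ libraries. Both T cell markers that could be tested between deficient and control cells were called higher: Cd8a at 1.96 against 0.474 CPM (log2 2.04, adjusted p = 0.0161) and Tcf7 at 1.03 against 0.183 CPM (log2 2.46, adjusted p = 0.0193). The other T cell markers were too low to be tested and did not all rise. Cd8b1 stood at 0.255 against 0.283 CPM and Cd3d at 0.193 against 0.137. Mean levels of Cd3e, Cd3g, Cd4 and Cd28 were at most 0.0276 CPM in both MZ groups. NK cell markers reached 19.98 to 26.4, 17.7 to 23.2 and 2.37 to 3.32 CPM, mostly from Prf1 (means 22.3, 20.6 and 2.46). No other of the 6 reached a mean of 1 CPM. Macrophage and monocyte markers reached 32.8 to 45.8, 31.7 to 35.6 and 16.4 to 38.2 CPM. Of these, 1 of 10 tested was called higher in deficient than in control cells, and Adgre1 stood at 4.50 against 1.73 CPM. Plasma cell markers reached 313 to 355, 379 to 397 and 305 to 330 CPM. Most of this came from Xbp1 (means 199, 200 and 92.1) and Irf4 (123, 175 and 206). Against FO cells, where 81.5% of all genes tested were called, 2 were called higher in control MZ cells and 3 lower. The lower ones included Sdc1 (0.812 against 10.5 CPM) and Jchain (1.17 against 5.70). Erythroid markers reached 7.21 to 24.9, 1.19 to 10.8 and 1.85 to 7.12 CPM; between deficient and control cells all 5 tested were higher at an unadjusted p under 0.05 and 1, Hbb-bt, was called. Platelet markers reached 7.72 to 16.3, 11.4 to 19.8 and 3.31 to 4.02 CPM, with 5 of 5 called higher in control MZ than in FO cells. There, 42.6% of all genes tested were called higher. Dendritic cell markers reached 11.6 to 17.7, 10.1 to 14.8 and 6.17 to 10.9 CPM, and neutrophil markers at most 0.976, 0.816 and 0.696 CPM. The deficient libraries had more of the summed FO markers and less of the summed MZ markers than the control libraries, with 4 of 5 FO markers called higher. Of the 6 MZ markers 1 was called higher, Cd1d1 at 952 against 642 CPM (log2 0.56, adjusted p = 0.00751), and 1 lower, Dtx1 at 1324 against 1739 CPM (−0.40, adjusted p = 0.00826). Cr2, the CD21 gene, stood at −0.26 (adjusted p = 0.0687; 0.0129 with DESeq2) and Fcer2a at −0.21 (adjusted p = 0.668) on the log2 scale in deficient against control cells. Whether these shifts take part in the differences of Il6st and Ifngr1 was not tested, and in these bulk libraries fewer cells of a type and less RNA per cell cannot be told apart.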

How the data were processed

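The labels put 12 libraries into 3 groups of 4. The tools named in the submitters' processing notes are TopHat2 2.0.12, Trim Galore, DESeq2 1.10.1 and HTSeq, and the build is GRCm38. The sources used here do not state strand handling or the annotation. Whole-number counts per Ensembl gene, without pooling, are what the authors deposited, and these were analysed. The log2 fold changes and the adjusted p-values in the authors' deposited tables are named where used.

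Of 43629 gene identifiers, 42548 matched GENCODE M21, and 19338 genes had no count. Columns of no sample and lines that named no gene numbered 0. For each comparison its 8 libraries alone were fitted with edgeR 4.0.16 (R 4.3.3; TMM scaling, default low-count filter, quasi-likelihood test, Benjamini-Hochberg adjustment over all genes tested, adjusted p under 0.05). Levels are CPM with TMM factors from all 12 libraries. The biological coefficient of variation was 0.123 and 0.104. Counts were also simulated with the same spread for every gene. For deficient against control MZ (13987 genes) the fit recovered 70% of 1.5-fold and 100% of 2-fold changes, and for control MZ against FO (13843 genes) 76% and 96%. Exact permutation tests were two-sided over 70 orderings. Single genes were tested on log2 of CPM plus 0.5, and chain pairs on the log2 ratio of CPM per kb with nothing added.

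The receptor genes, pathway lists, chain pairs and tests were chosen with earlier results of these data known. Named genes are all 10 receptor genes, Zfp36l1, Cr2, Fcer2a, the Janus kinases and the STAT factors. Named as well are the up to 5 largest called changes per list and direction with mean CPM of at least 1. Ifnar2, Ifngr2, the ligands at 0, the other single cell type markers and the interferon-induced genes of the closing section lie outside this rule. They were picked once their values were known. Not every gene that meets the rule is reported here. Alternatives were DESeq2 1.42.0, another scaling, no filter, all 12 libraries in 1 fit, single libraries left out, a replicate block and, added after seeing the data, robust dispersion and ratios without single libraries. No protein sequences were used here.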

Additional observations from a re-analysis of the deposited data

Results flagged for a closer look

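Of 30 groups of 4 libraries (10 genes in 3 groups) 2 held a library far from the other 3, where chance alone gives about 1 in 20. Ifngr1 was 189 CPM in control replicate 5, against 178 to 179.6 in the other control MZ libraries, and Ifnar1 was 81.1 CPM in deficient replicate 1, against 85.6 to 86.3 in the other deficient libraries.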

How the results depend on the processing

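In deficient against control MZ cells 517 genes were called; the count was 1049 with DESeq2 (567 higher, 482 lower), 788 with all 12 libraries in 1 fit, 733 without the filter, 526 with robust dispersion, 516 with the other scaling, and 253 to 483 when single libraries were left out (253 without control replicate 4). Of the 10 receptor genes 2 to 3 were called under these settings, Il6st and Ifngr1 in each. In control MZ against FO cells 11278 genes were called, with 9951 to 13439 under the alternatives, 11182 to 11480 without single libraries and 9951 with the replicate block, under which 8 of the receptor genes were called. The control MZ and FO groups share only the numbers 3 and 4, whose genotypes differ, and same-numbered libraries had correlations of −0.045 and −0.109, so no pairing was assumed. Under the block Il10ra was −0.11, Lifr −8.96, Il2rb 2.36 and Tyk2 −0.06. Calls of Il2rg against FO appeared without the filter (−0.16, adjusted p = 0.0486). Signs near 0 changed: in deficient against control cells Il9r was 0 with DESeq2 and with the other scaling, 0.01 with 12 libraries and −0.07 to 0.07 without single libraries, and Il2rg was −0.01 to 0.07 without single libraries. In control MZ against FO cells Tyk2 was −0.01 without the filter and −0.02 to 0.05 without single libraries, Jak3 −0.17 to 0.06 and Stat2 −0.09 to 0.01. The log2 ratio of Il9r over Il2rg in deficient against control cells was −0.14 to 0.03 without single libraries. The cause was not tested. With 4 libraries a group, a 1.5-fold change is missed in part, so the genes not called may still differ.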

Other observations

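Some interferon-induced genes, Socs1, Irf1, Gbp2 and Cxcl10, were highest in the same library of their group in control MZ and in FO cells. In control MZ replicate 6, Socs1 stood at 61.8 CPM, against 13.5 to 14.9 in the other control libraries. Irf1 stood there at 365 against 175 to 212 CPM, Gbp2 at 81.9 against 34.1 to 43.4 and Cxcl10 at 2.52 against 0.589 to 0.742. FO replicate 4 was likewise the highest of its group for Socs1 (2.88 CPM), Irf1 (345), Gbp2 (41.7) and Cxcl10 (0.633), and it held 17 counts of Ifng, against 2 to 4 in the other FO libraries and 0 in all MZ libraries. Ifngr1 in the same libraries stood at 179 CPM in control replicate 6 and 102 in FO replicate 4, within or beside the range of the other libraries of the group. These genes were singled out after their values were seen. Other interferon-induced genes were closer among the control MZ libraries, with Mx1 at 35.3 to 41.3 CPM, Isg15 at 26.4 to 40.2, Irf7 at 92.6 to 129.9 and Ifit1 at 24.3 to 38.3.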
